A study of Mus musculus with 19 samples.

Results

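The levels of 55 genes of mitosis and chromosome segregation were examined in RNA of sorted bone marrow cells. The genes were taken from a list of symbols, each with a row in the table of 50854 genes, and fall into 8 groups by their role. Of these, 54 could be tested, with a mean count of 1 or more in 19 libraries. Ccnb1 (cyclin B1) has a row but only 1 read in all, and it lies in the part of chromosome 13 from Hnrnpk to the end, where 82.6% of 373 protein-coding genes had a mean under 1 read, against 38.1% on the other autosomes, so its level is not known here. Cells came from female REP mice aged 8 to 12 weeks, in which fluorescent reporters mark chemokine receptors. Mice that received no cytokines gave 4 libraries of CCR1/2+ve and 4 of CCR2+ve monocytes, called resting. Those called inflamed, with 3 libraries of CCR1/2+ve monocytes (replicates 2, 3 and 4) and 4 of CCR2+ve, are from mice whose osmotic pumps released IL-3, IL-6, GM-CSF and IFN-α under the skin. Another 4 libraries are labelled inflamed CCR1 and also monocytes. Whether resting mice carried pumps with vehicle, whether animals were pooled, and whether resting and inflamed libraries were prepared together is not given in the sources used here, so infusion and preparation cannot be told apart.

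Mitosis is driven by cyclin-dependent kinase 1 with its A and B cyclins, which start the condensation of chromosomes and the building of the spindle. The spindle checkpoint holds the cell until each kinetochore is attached to microtubules, and the anaphase-promoting complex with Cdc20 then marks securin and cyclins for destruction, which frees separase to part the sister chromatids. Most of these genes are transcribed late in the cell cycle, and their mRNAs are low in cells that do not divide. In bone marrow, dividing cells are found among progenitors and the younger stages of the myeloid lineage. In bulk RNA, fewer dividing cells and less RNA per cell cannot be told apart.

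Promoters of genes of this kind often hold the cell cycle genes homology region (CHR, TTTGAA or TTCGAA), through which the DREAM, MuvB and FOXM1 complexes act, and CCAAT boxes, which NF-Y binds. RefSeq promoters on GRCm38.p6 were matched for 48 of the 55 genes, with 51 start sites in all. In the 250 bases before the start, CHR letters on either strand stood in 43.1% of the 51 promoters, against 17.1% of all 32851 promoters in the table. CCAAT on either strand stood in 78.4%, against 33.8%, and both in 41.2%, against 6.02%. For 30 genes of DNA replication, 24 of which had a promoter, the shares were 21.4% for CHR letters and 57.1% for CCAAT. A match is only of letters, and TTCGAA reads the same on both strands. The 200 bases before the start are given for 5 of the genes that hold both, to show how the motifs lie in genes of mitotic entry and anaphase, with CHR letters and CCAAT in capitals, also where a motif is read on the other strand.
Cdk1 (chr10:69352913-69353112, minus strand): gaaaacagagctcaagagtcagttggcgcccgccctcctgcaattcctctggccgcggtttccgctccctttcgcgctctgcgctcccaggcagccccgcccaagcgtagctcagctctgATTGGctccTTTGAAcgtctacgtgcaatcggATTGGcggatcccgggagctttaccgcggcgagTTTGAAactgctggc
Ccnb2 (chr9:70421555-70421754, minus strand): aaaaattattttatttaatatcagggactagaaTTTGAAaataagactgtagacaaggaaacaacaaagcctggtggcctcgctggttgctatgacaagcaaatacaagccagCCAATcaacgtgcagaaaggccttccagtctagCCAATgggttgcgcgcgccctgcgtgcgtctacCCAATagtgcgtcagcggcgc
Cdc20 (chr4:118437344-118437543, minus strand): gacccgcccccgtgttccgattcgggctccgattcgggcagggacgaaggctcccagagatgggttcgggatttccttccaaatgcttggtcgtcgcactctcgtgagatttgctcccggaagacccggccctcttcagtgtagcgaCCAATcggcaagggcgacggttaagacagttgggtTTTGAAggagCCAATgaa
Ube2c (chr2:164769729-164769928, plus strand): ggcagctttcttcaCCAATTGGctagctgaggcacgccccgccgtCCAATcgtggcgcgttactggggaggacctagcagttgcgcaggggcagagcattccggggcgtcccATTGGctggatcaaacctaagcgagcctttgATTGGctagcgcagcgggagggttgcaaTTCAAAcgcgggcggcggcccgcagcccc
Espl1 (chr15:102296093-102296292, plus strand): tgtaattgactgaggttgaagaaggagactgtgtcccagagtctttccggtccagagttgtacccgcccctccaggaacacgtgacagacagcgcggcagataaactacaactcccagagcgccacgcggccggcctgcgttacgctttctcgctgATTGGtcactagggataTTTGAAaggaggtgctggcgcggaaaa
The Cdk1 stretch held 2 CHR matches and 2 CCAAT matches. In Cdc20, the CHR letters lay close to the start, between the 2 CCAAT matches. In Ube2c, 5 CCAAT matches were found, of which a pair on opposite strands overlap. These 5 genes did not move alike: Cdc20 fell after cytokine infusion in both populations while Espl1 rose in both.

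Between 22268658 and 30502009 reads were counted on genes per library (median 23706580), and levels are given as CPM, counts scaled to a common library total with TMM factors. Levels of different genes are compared only as CPM per kb of exonic length. Monocyte markers were high in the resting and inflamed CCR1/2+ve and CCR2+ve groups, where the summed level of 10 monocyte genes was 25727 to 48328 CPM. In the libraries labelled inflamed CCR1 the same sum was 7471 to 12241 CPM, with Csf1r at 17.7 ± 4.43, Cx3cr1 at 2.38 ± 0.554 and Ccr2 at 5.81 ± 2.56 CPM (SD, n = 4). These libraries also had 104233 to 152861 CPM on 10 neutrophil genes and 44535 to 53556 CPM on 8 early granule and progenitor genes, led by Ngp, Elane and Mpo. Most of the markers thus go against the label of monocytes, and the group is called inflamed CCR1 as labelled. Markers of B cells and of T and NK cells were low in the resting groups apart from Ighm and Nkg7, with Pax5, Cd3e and Cd8a each under 1 CPM in every group mean. In inflamed CCR1 libraries the sum of 9 T and NK cell genes was 1360 to 1705 CPM, against 4.6 to 81.4 CPM in the other groups. Of the 9, 1 rose and 3 fell against inflamed CCR2+ve monocytes. The sum of 10 B cell genes was 593 to 1011 CPM in resting and 908 to 1690 CPM in inflamed CCR1/2+ve and CCR2+ve libraries.

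**Figure D1:**
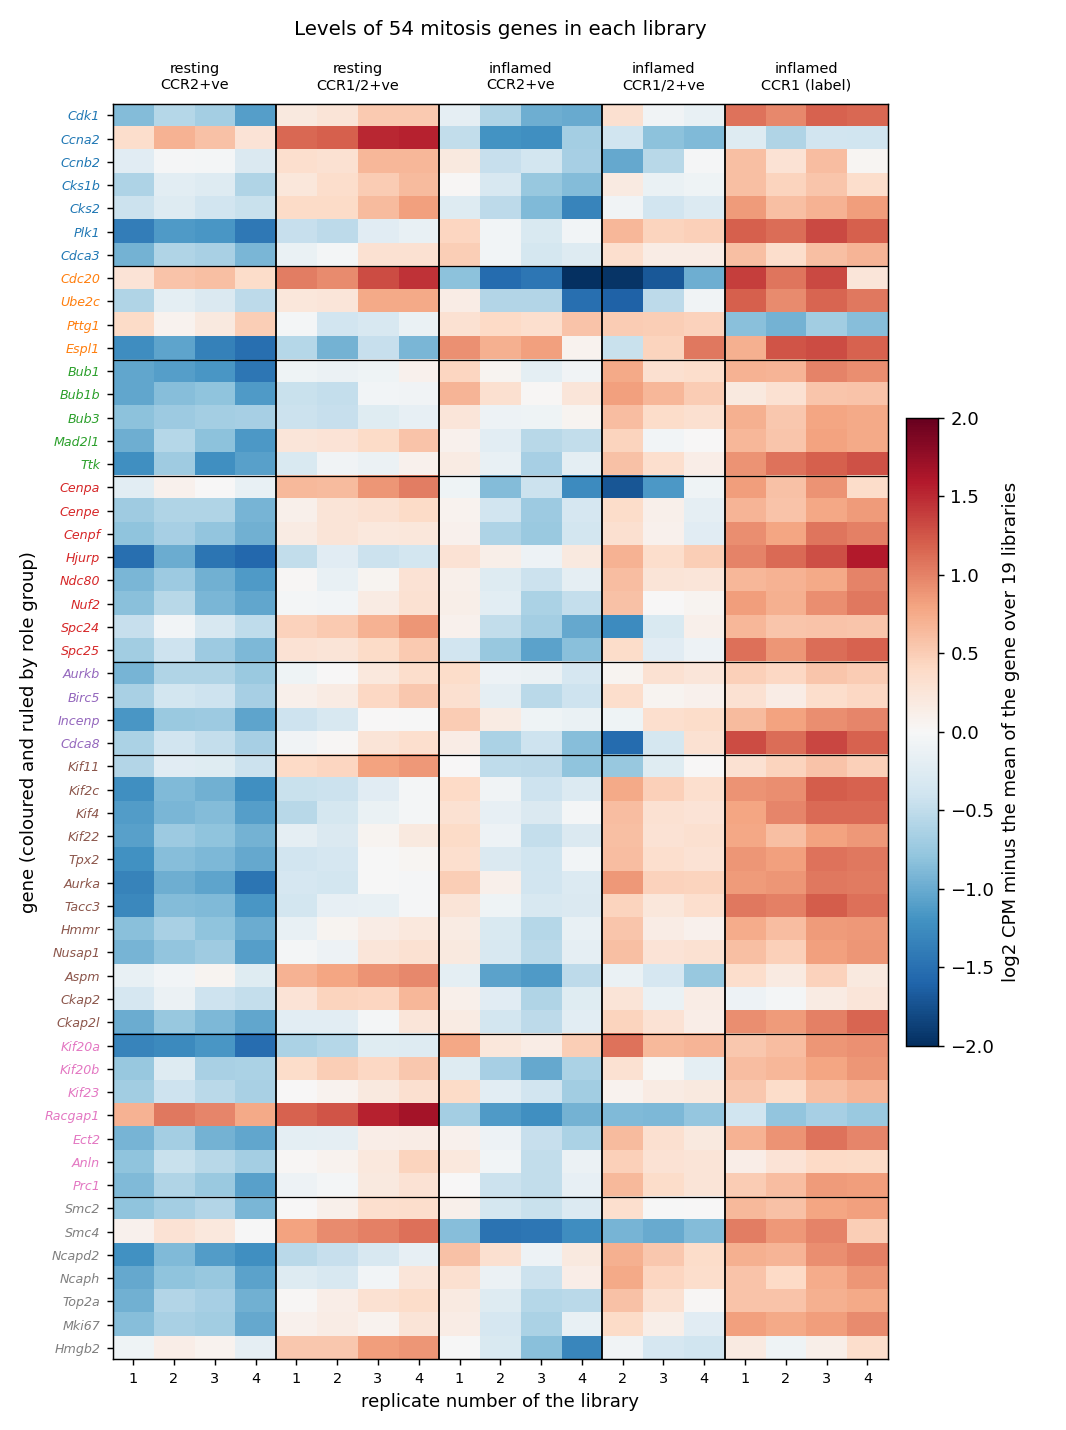
Level of each of the 54 mitosis genes (rows, ordered by role group) in each of the 19 libraries (columns, by group and replicate number), as log2 CPM minus the mean of that gene over the 19 libraries. Most rows are lowest in resting CCR2+ve and highest in inflamed CCR1 libraries. Several others, among them Racgap1, Ccna2, Smc4, Kif11 and Aspm, are highest on average in resting CCR1/2+ve libraries, and Pttg1 is lowest in inflamed CCR1 libraries.

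The levels spanned a wide range. In resting CCR1/2+ve monocytes, the highest member was Hmgb2, a chromatin protein, at 442 CPM per kb, followed by Ccnb2 at 246 and Cks1b, a partner of cyclin-dependent kinases, at 209. The lowest was Espl1 (separase) at 2.55 CPM per kb. Hmgb2 was the highest of the 54 in all 5 groups. Plk1, the polo kinase of mitotic entry, was at 87.1 CPM per kb in resting and 158 in inflamed CCR1/2+ve monocytes, where it was the second highest. The median coefficient of variation of the genes among replicates was 13% in resting CCR1/2+ve, 11.2% in resting CCR2+ve, 15.5% in inflamed CCR1/2+ve, 22.8% in inflamed CCR2+ve and 9.29% in inflamed CCR1 libraries.

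The resting populations were compared to ask how CCR1/2+ve monocytes differ from CCR2+ve monocytes without inflammation. Nearly the whole mitotic list was higher in CCR1/2+ve monocytes. Of the 54 genes tested, 53 rose, where 8.44% of all 18652 genes tested were higher, and Pttg1 alone fell, where 8.44% were lower. The median log2 fold change was 0.95, against 0.03 over all genes, and the middle of the list was narrow, with quartiles of 0.86 and 1.04. The 53 genes were higher in every CCR1/2+ve than in every CCR2+ve library (8.11% of all genes), and Pttg1 was lower in every one (12.2% of all genes). Summed over the list, the level was 11897, 12265, 14247 and 15154 CPM in CCR1/2+ve and 6927, 8348, 7936 and 6807 CPM in CCR2+ve libraries, a gap without overlap. With a log2 fold change of at least 1 also asked for, 21 were higher, against 2.34% of all genes, and 0 lower, against 1.9%. Many of the 54 lie near that line: the 21 became 7 when CCR2+ve replicate 4 was left out, 11 when CCR1/2+ve replicate 4 was, and 31 when CCR2+ve replicate 2 was. A fit of all 5 groups gave 50 higher, without Cdc20, Cdca8 and Espl1, and 8 past the fold as well.

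**Figure D2:**
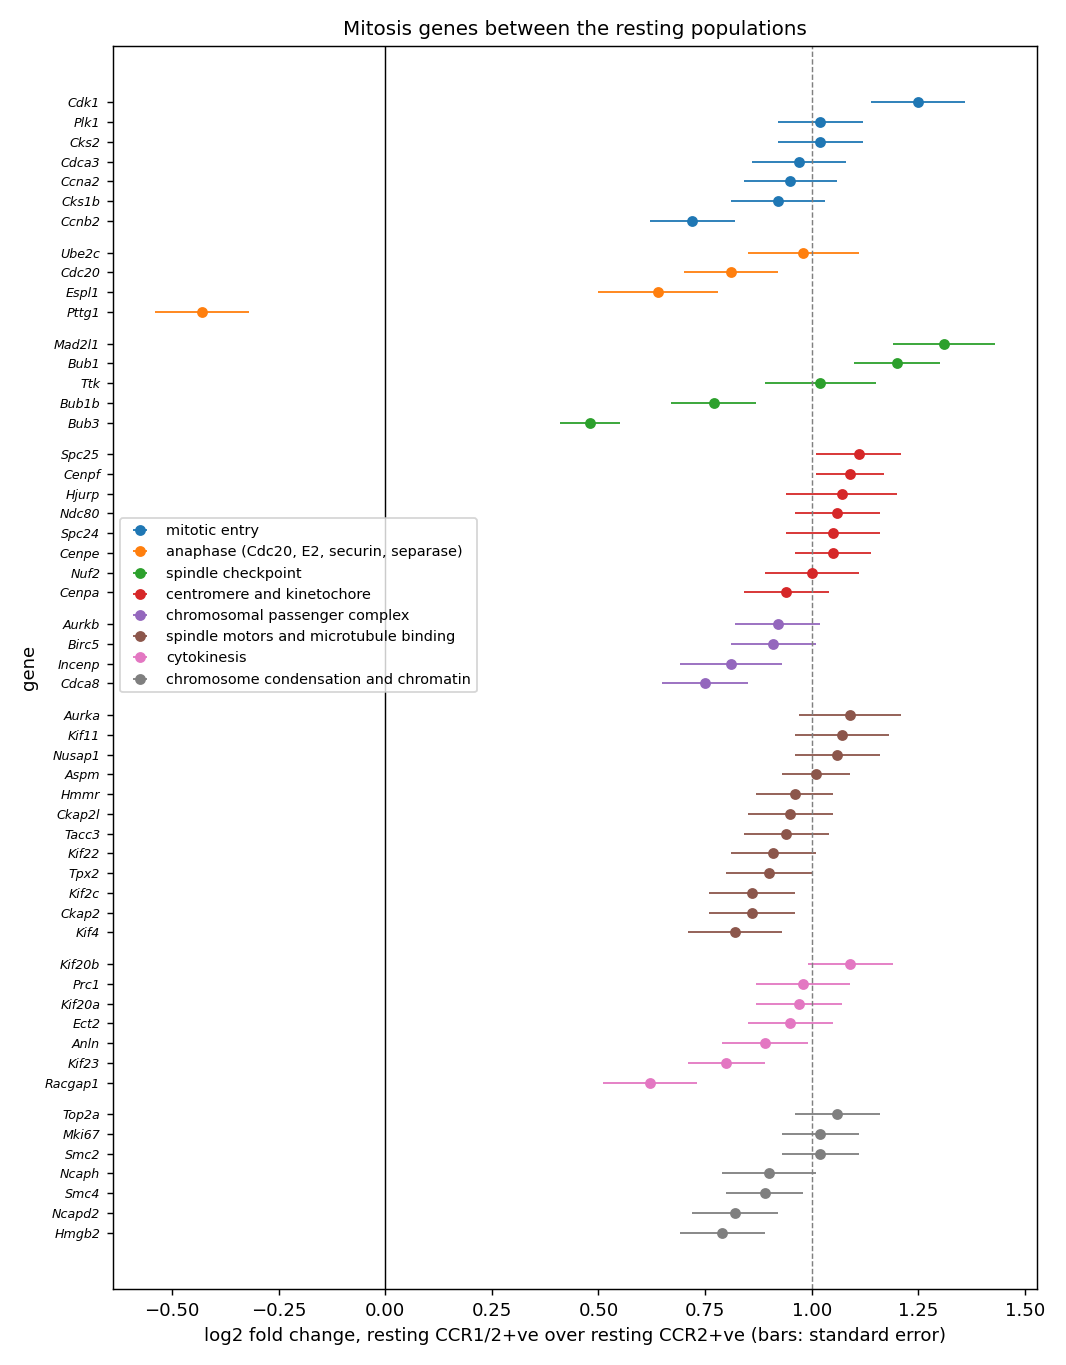
Log2 fold change of each of the 54 mitosis genes, resting CCR1/2+ve over resting CCR2+ve (points, with the standard error as bars), by role group. The dashed line marks a log2 fold change of 1; 53 genes lie between 0.48 and 1.31 and Pttg1 at −0.43.

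Gene positions are on GRCm38, and values in brackets after CPM are log2 fold changes. Among the genes of mitotic entry, all 7 tested rose, with log2 fold changes of 0.72 to 1.25. Cdk1 (ENSMUSG00000019942, chr10:69335146-69352938, minus strand), the kinase that starts mitosis, was at 193, 201, 243 and 242 CPM in CCR1/2+ve and 91.9, 113, 105 and 78.8 CPM in CCR2+ve libraries. The groups did not overlap, and its log2 fold change of 1.25 (SE 0.11, adjusted p = 5.58e-05) was the largest of this group. Ccnb2 (ENSMUSG00000032218, chr9:70407692-70421547, minus strand), cyclin B2, was at 335, 327, 421 and 422 against 227, 260, 258 and 217 CPM. It had the smallest change of the group, 0.72 (SE 0.10, adjusted p = 0.000366), and its lowest CCR1/2+ve library was still above its highest CCR2+ve library. Ccna2, Plk1, Cks1b, Cks2 and Cdca3 lay between 0.92 and 1.02.

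The genes of anaphase onset were the least uniform. Ube2c (ENSMUSG00000001403, chr2:164769898-164778822, plus strand), the ubiquitin-conjugating enzyme of the anaphase-promoting complex, was at 257, 259, 371 and 370 against 145, 191, 180 and 153 CPM, a log2 fold change of 0.98 (SE 0.13, adjusted p = 0.000326). Exons of Tnnc2 overlap 22.8% of its exonic bases, and the strand of counting is not recorded. Cdc20, the co-activator of the complex, changed by 0.81, and Espl1, separase, by 0.64. Pttg1 (ENSMUSG00000020415, chr11:43420250-43426251, minus strand), securin, the inhibitor of separase, was at 50.8, 40.2, 42 and 47.8 CPM in CCR1/2+ve and 68.2, 55, 59.8 and 74.1 CPM in CCR2+ve libraries. Each CCR1/2+ve library was below each CCR2+ve library, and the log2 fold change was −0.43 (SE 0.11, adjusted p = 0.0146). Leaving out CCR2+ve replicate 1 gave Pttg1 an adjusted p of 0.0525. It was the only one of the 54 to fall.

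The 5 genes of the spindle checkpoint all rose and held the list's largest and smallest increases. Mad2l1 (ENSMUSG00000029910, chr6:66535390-66547220, plus strand), the checkpoint protein that binds Cdc20, was at 161, 165, 178 and 202 against 69.1, 91.7, 77.1 and 61.4 CPM, a log2 fold change of 1.31 (SE 0.12, adjusted p = 5.22e-05). Bub1, the checkpoint kinase, followed with 1.20. Bub3 (ENSMUSG00000066979, chr7:131560222-131571895, plus strand), the adaptor that brings Bub1 and Bub1b to kinetochores, was at 425, 412, 484 and 508 against 323, 344, 355 and 358 CPM. Its change of 0.48 (SE 0.07, adjusted p = 0.000884) was the smallest of the 53 that rose, and its level per kb over the 19 libraries was the highest of the group.

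All 8 genes of the centromere and kinetochore rose, and 7 of them passed a log2 fold change of 1. Spc25 (ENSMUSG00000005233, chr2:69193895-69206194, minus strand) and Spc24 (ENSMUSG00000074476, chr9:21755442-21760303, minus strand) are partners in the Ndc80 complex, which holds microtubules. Spc25 was at 201, 198, 216 and 236 against 102, 124, 100 and 88.7 CPM, a change of 1.11 (SE 0.10, adjusted p = 5.97e-05). Spc24 was at 208, 217, 245 and 278 against 110, 145, 121 and 106 CPM, a change of 1.05. The remaining subunits, Ndc80 and Nuf2, changed by 1.06 and 1.00, so that the 4 subunits lay within 0.11 of each other, about their standard errors. Cenpa (ENSMUSG00000029177, chr5:30666777-30674830, plus strand), the histone H3 variant that marks centromeres, was at 300, 298, 355 and 389 against 165, 204, 192 and 173 CPM and had the smallest change of the group, 0.94 (SE 0.10, adjusted p = 7.7e-05).

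The 4 genes of the chromosomal passenger complex, which corrects wrong attachments, rose by 0.75 to 0.92 on the log2 scale. Aurkb (ENSMUSG00000020897, chr11:69045647-69051664, plus strand), its kinase, was at 239, 254, 291 and 323 against 133, 167, 166 and 151 CPM (0.92). Cdca8 (ENSMUSG00000028873, chr4:124918465-124939311, minus strand), borealin, was at 241, 255, 303 and 317 against 163, 193, 181 and 159 CPM, with a change of 0.75 (SE 0.10, adjusted p = 0.000266). Birc5 (survivin) and Incenp lay between them.

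The 12 genes of spindle motors and microtubule-binding proteins rose by 0.82 to 1.09. Aurka (ENSMUSG00000027496, chr2:172356190-172370535, minus strand), the kinase of spindle poles, was at 154, 151, 194 and 191 against 77.2, 99.3, 94 and 71 CPM, a change of 1.09 (SE 0.12, adjusted p = 9.93e-05). Kif4 (ENSMUSG00000034311, chrX:100625737-100727214, plus strand), a chromosome-bound kinesin, was at 51.3, 59, 68.3 and 73.3 against 34.6, 40, 41 and 34.9 CPM, the smallest change of the group at 0.82, and exons of Pdzd11 overlap 15.1% of its exonic bases. Tacc3 (ENSMUSG00000037313, chr5:33658128-33678995, plus strand), which stabilizes spindle fibres and had the highest level per kb of the group over the 19 libraries, was at 246, 285, 287 and 312 against 130, 174, 173 and 143 CPM (0.94). None of these groups overlapped.

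Of the 7 genes of cytokinesis, the division of the cell body, all rose. Kif20b (ENSMUSG00000024795, chr19:34922361-34975745, plus strand), a kinesin of the central spindle, was at 177, 193, 183 and 200 against 81.1, 115, 87.9 and 89.1 CPM, a change of 1.09 (SE 0.10, adjusted p = 6.64e-05). Racgap1 (ENSMUSG00000023015, chr15:99620496-99651656, minus strand), a subunit of centralspindlin, was at 347, 365, 446 and 483 against 247, 316, 302 and 257 CPM, a smaller change of 0.62 (SE 0.11, adjusted p = 0.00211). Its partner in centralspindlin, Kif23, changed by 0.80. Kif20a (ENSMUSG00000003779), a kinesin with the highest level per kb of the group over the 19 libraries, was at 128, 134, 167 and 165 against 79, 82.2, 88.6 and 68.7 CPM (0.97), and exons of Cdc23 overlap 29.3% of its exonic bases.

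The 7 genes of chromosome condensation and chromatin rose by 0.79 to 1.06. Top2a (ENSMUSG00000020914, chr11:98992943-99024189, minus strand), the topoisomerase that untangles sister chromatids, was at 772, 834, 939 and 981 against 393, 510, 482 and 392 CPM, a change of 1.06 (SE 0.10, adjusted p = 7.37e-05). Hmgb2 (ENSMUSG00000054717, chr8:57511907-57515999, plus strand) was at 1188, 1176, 1450 and 1499 against 764, 896, 856 and 716 CPM (0.79, SE 0.10, adjusted p = 0.000249). The condensin subunits Smc2, Smc4, Ncaph and Ncapd2 changed by 1.02, 0.89, 0.90 and 0.82, and Mki67, which coats mitotic chromosomes, by 1.02.

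Other genes of the cell cycle were compared between the same resting groups, where 8.44% of all genes rose and 8.44% fell. Of 45 further mitosis genes tested, 43 rose and 0 fell, with a median log2 fold change of 0.97. H2afz, a histone variant, changed by 0.60 and Kif18b, a kinesin, by 1.33, while Zwint (0.12, adjusted p = 0.335) and Tmpo, named after its value was seen (0.23, adjusted p = 0.0551), did not pass. All 29 DNA replication genes tested rose (median 0.81), among them Tyms, thymidylate synthase, by 1.16, Rrm2, a subunit of ribonucleotide reductase, by 1.05 and Cdt1, the licensing factor, by 0.36. Of 14 activators of the mitotic programme, 7 rose and 0 fell. Foxm1, a transcription factor for G2 and M phase genes, changed by 0.97 (SE 0.12, adjusted p = 0.000266) and E2f2 was at −0.19 (adjusted p = 0.139). Of 15 repressors and inhibitors of the cell cycle, 4 rose and 4 fell. E2f7 (0.98) and Cdkn2d (0.50) were among those that rose, and Cdkn1c, at 0.277 against 1.17 CPM, among those that fell. The remaining calls, named after their values were seen, were E2f8 and Rbl1, which rose, and Cdkn1a, Btg1 and Btg2, which fell. Of 8 cyclins and kinases of earlier phases, 5 rose and 0 fell, with Ccnd2 at 1.39, Ccnd3 at 0.09 (adjusted p = 0.612) and Ccnd1 at −1.07 (adjusted p = 0.0737).

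Markers of other cells moved with the resting groups. The summed level of 8 early granule and progenitor genes was 3053 to 6506 CPM in CCR1/2+ve and 464 to 1624 CPM in CCR2+ve libraries, with 6 of the 8 higher and 1 lower. That of 10 neutrophil genes was 2456 to 3127 against 597 to 909 CPM, with 5 higher and 0 lower, mostly on S100a8. Of 8 dendritic cell genes 0 were higher and 5 lower, with sums of 31 to 117 against 196 to 586 CPM. Of 10 monocyte genes 0 were higher and 7 lower. The share of reads on mitochondrial genes was 0.585 to 0.987% in CCR1/2+ve and 0.347 to 0.59% in CCR2+ve libraries. The part of these in the mitotic difference was not tested.

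Cytokine infusion was compared with rest in each population in turn. In CCR2+ve monocytes more of the mitotic list rose than fell. Of 54 genes, 31 rose (57.4%, against 21.9% of all genes tested), 7 fell (13%, against 25.9%) and 16 did not pass. The median log2 fold change was 0.48, with a range from −1.93 to 1.86, against −0.10 over all genes. In CCR1/2+ve monocytes, 17 rose (31.5%, against 20.6% of all genes), 18 fell (33.3%, against 25.4%) and 19 did not pass. The median was −0.03 with a range from −2.79 to 1.11, against −0.25 over all genes. These splits move with the scaling: upper quartile factors gave 23 higher and 13 lower in CCR1/2+ve monocytes, with the median of all genes at −0.06, and library size alone gave 12 and 25, with it at −0.46. With a log2 fold change of at least 1 as well, 8 rose and 4 fell in CCR2+ve monocytes (9.37% and 19.2% of all genes), and 2 rose and 11 fell in CCR1/2+ve monocytes (9.16% and 19.4%). The 11 of 54 are close to the share of all genes that fell, and the 2 are below the share that rose. Upper quartile factors gave 14 in place of the 8 and 7 in place of the 11.

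**Figure D3:**
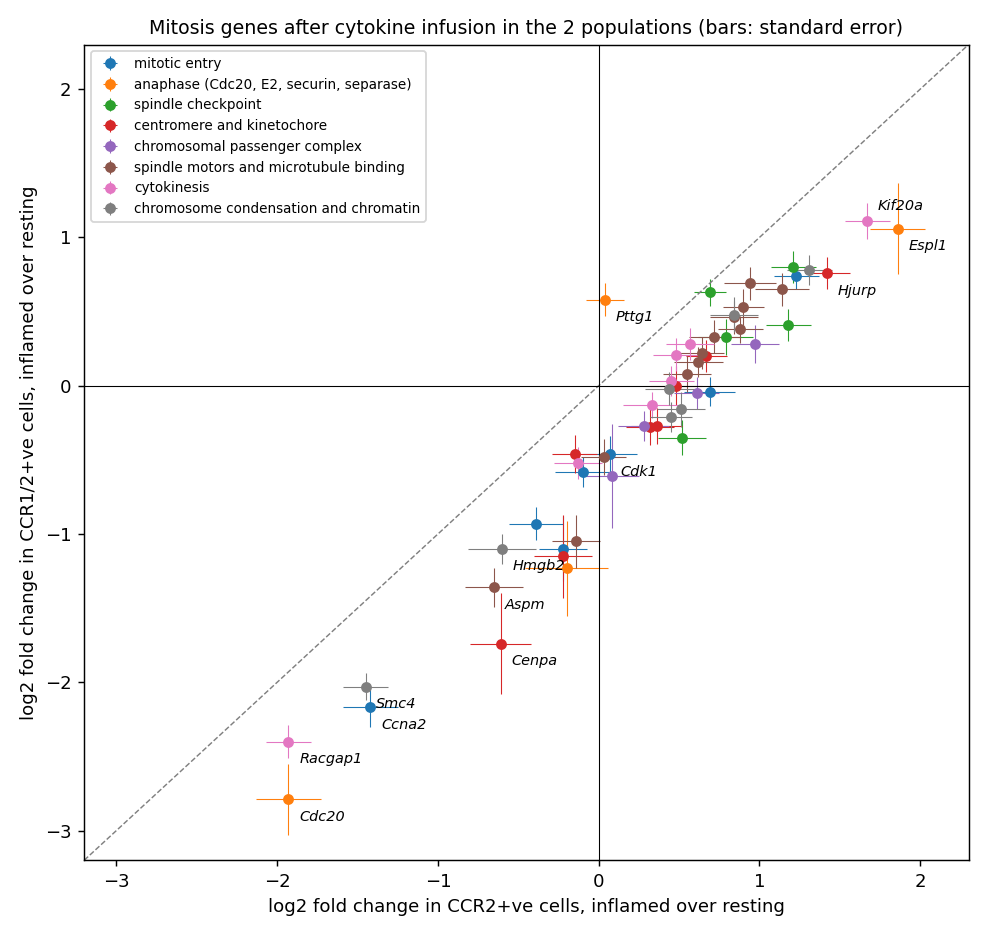
Log2 fold change of each of the 54 mitosis genes, inflamed over resting, in CCR2+ve cells (horizontal axis) and CCR1/2+ve cells (vertical axis), with standard errors as bars and colours by role group; the dashed line marks equal values. Cdc20, Racgap1, Smc4 and Ccna2 lie lowest on both axes and Kif20a and Espl1 highest, and 53 of the 54 points lie below the dashed line, Pttg1 above it.

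The order of the genes was alike in the 2 populations. Their libraries are separate, but the resting ones paired by replicate number (correlations 0.288 to 0.536), so the 2 changes may not be independent. Across the 54 genes, Pearson's r between the 2 log2 fold changes was 0.96 and Spearman's rho 0.94, as a description over genes, which are not independent and share the same resting and inflamed conditions. The same 7 genes that fell in CCR2+ve monocytes, Aspm, Ccna2, Cdc20, Cenpa, Hmgb2, Racgap1 and Smc4, also fell in CCR1/2+ve monocytes. Of the 31 that rose in CCR2+ve monocytes, 16 rose in CCR1/2+ve monocytes, 14 did not pass there and Mad2l1 fell.

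Values in brackets are log2 fold changes of inflamed over resting libraries, and where a pair is given, that in CCR2+ve comes before that in CCR1/2+ve monocytes. The falls were largest for 4 genes in both populations. By role group, mitotic entry had 2 genes higher and 1 lower of 7 in CCR2+ve and 1 higher and 5 lower in CCR1/2+ve monocytes, and the kinetochore 3 and 1 of 8 against 1 and 3. The passenger complex had 2 and 0 of 4 against 0 and 0, cytokinesis 4 and 1 of 7 against 1 and 2, and condensation 5 and 2 of 7 against 2 and 2. Beside the 21.9% higher and 25.9% lower of all genes in CCR2+ve monocytes, and 20.6% and 25.4% in the CCR1/2+ve group, several of these counts are near the background, and groups this small are given only as a description. Cdc20 (ENSMUSG00000006398, chr4:118432901-118437352, minus strand) was at 118, 145, 149 and 126 CPM in resting and 55.5, 33.7, 36.1 and 23.6 CPM in inflamed CCR2+ve libraries, a log2 fold change of −1.93 (SE 0.20, adjusted p = 9.52e-07). In CCR1/2+ve libraries it was at 199, 189, 242 and 266 CPM at rest and 25.1, 30.3 and 49.7 CPM after infusion (−2.79, SE 0.24, adjusted p = 1.42e-05). The lowest resting library of either population was above the highest inflamed one. Racgap1 was at 95.2, 69.7, 65.5 and 79.4 CPM in inflamed CCR2+ve and 82.8, 82.4 and 88.9 CPM in inflamed CCR1/2+ve libraries, against the resting values above, with changes of −1.93 (SE 0.14, adjusted p = 1.74e-08) and −2.40 (SE 0.11, adjusted p = 1.57e-08). No other gene of cytokinesis fell in CCR2+ve monocytes, and Kif23, its partner, was at 0.33 and −0.13, neither past the threshold (adjusted p = 0.148 and 0.246).

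Smc4 (ENSMUSG00000034349, chr3:69004738-69034623, plus strand), a condensin subunit, went from 270, 311, 296 and 254 to 141, 91.9, 93.7 and 108 CPM in CCR2+ve libraries (−1.45, SE 0.14, adjusted p = 5.22e-07). In CCR1/2+ve libraries it went from 443, 488, 509 and 546 to 133, 126 and 140 CPM (−2.03, SE 0.09, adjusted p = 1.36e-08). Its partners in condensin went the other way or did not pass: Ncapd2 rose in both populations (1.31 and 0.78), as did Ncaph (0.84 and 0.48), while Smc2 rose in CCR2+ve monocytes (0.45) and was at −0.21 in CCR1/2+ve monocytes (adjusted p = 0.121). Ccna2 (ENSMUSG00000027715, chr3:36564865-36572150, minus strand), cyclin A2, went from 108, 137, 127 and 102 to 60.1, 37, 36 and 52.4 CPM in CCR2+ve libraries (−1.42, SE 0.17, adjusted p = 5.08e-06). In CCR1/2+ve libraries it went from 187, 194, 241 and 246 to 64, 47.8 and 45.9 CPM (−2.17, SE 0.13, adjusted p = 1.21e-07). Exons of Exosc9 overlap 12.5% of its exonic bases. Resting and inflamed libraries did not overlap for Smc4 or Ccna2 in either population.

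**Figure D4:**
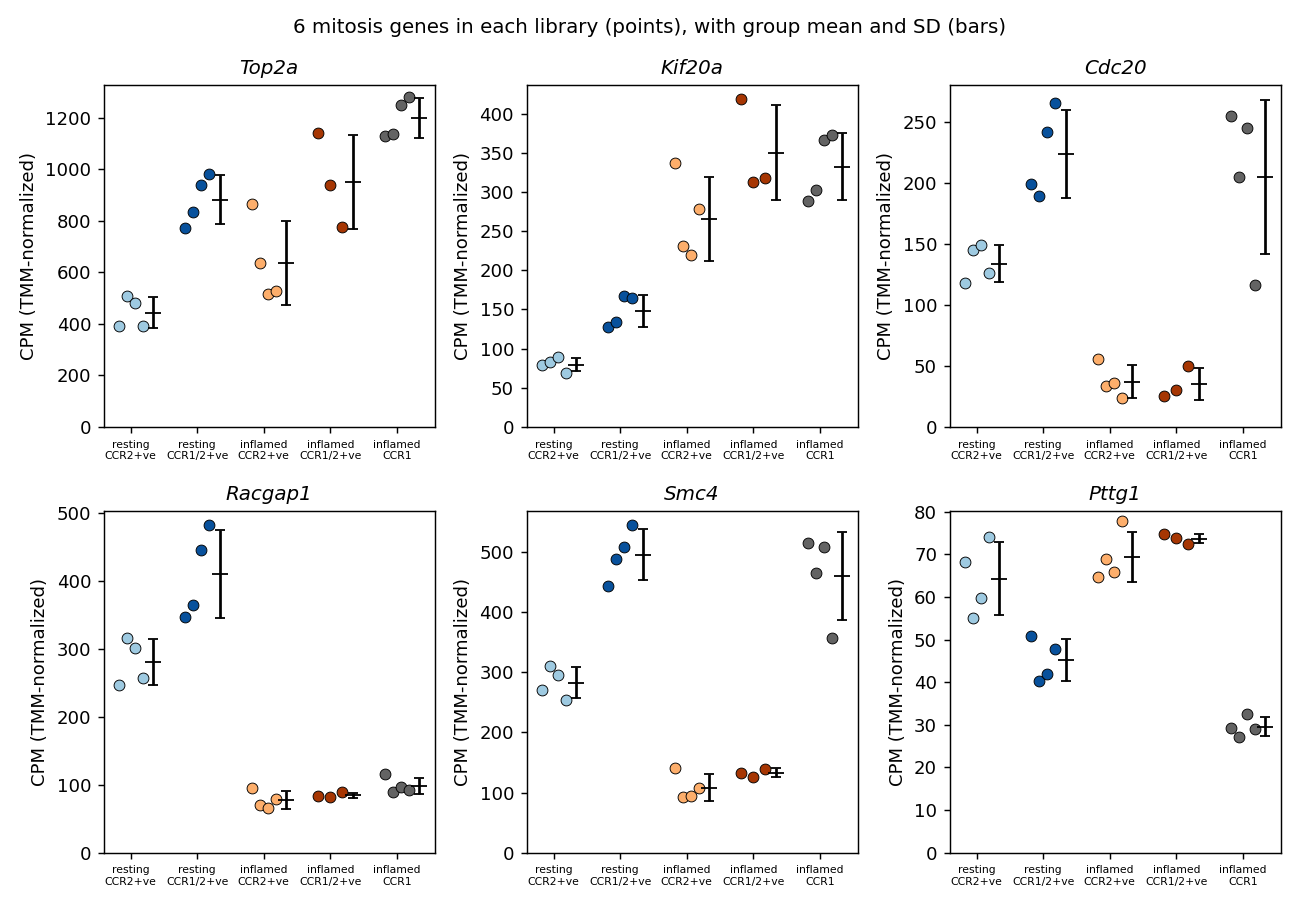
Level in CPM of Top2a, Kif20a, Cdc20, Racgap1, Smc4 and Pttg1 in each library (points) of the 5 groups, with the group mean and SD (n = 4, and 3 for inflamed CCR1/2+ve) beside them. Cdc20, Racgap1 and Smc4 are lower in every inflamed CCR2+ve and CCR1/2+ve library than in every resting one, Kif20a is higher, and the inflamed CCR1 libraries are high in Cdc20 and Smc4 and low in Racgap1 and Pttg1.

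Smaller falls were seen in the other 3. Cenpa was at 180, 105, 142 and 80.4 CPM in inflamed CCR2+ve libraries, of which replicate 1 overlapped the resting range (−0.61, SE 0.19, adjusted p = 0.0161), and at 58.6, 86.9 and 180 CPM in inflamed CCR1/2+ve libraries (−1.74, SE 0.34, adjusted p = 0.00257). Hjurp (ENSMUSG00000044783, chr1:88262471-88277633, minus strand), the chaperone that loads Cenpa, rose instead, from 85.5, 122, 88.2 and 81.7 to 295, 264, 225 and 278 CPM in CCR2+ve (1.42, SE 0.14, adjusted p = 7.35e-07) and from 173, 207, 180 and 188 to 393, 308 and 342 CPM in CCR1/2+ve libraries (0.76). Aspm (ENSMUSG00000033952, chr1:139454772-139494091, plus strand), a spindle pole protein, went from 57.8, 61.5, 66.1 and 53.9 to 55.8, 30.5, 29 and 44.6 CPM in CCR2+ve libraries, with overlap (−0.65, SE 0.18, adjusted p = 0.00838), and from 104, 111, 119 and 124 to 58.1, 50.8 and 37.6 CPM in CCR1/2+ve libraries, without (−1.36, SE 0.13, adjusted p = 5.51e-06). Hmgb2 was at 811, 656, 454 and 330 CPM in inflamed CCR2+ve and 772, 643 and 616 CPM in inflamed CCR1/2+ve libraries, changes of −0.60 (SE 0.21, adjusted p = 0.0306) and −1.10 (SE 0.10, adjusted p = 3.03e-06), with overlap of resting and inflamed libraries in CCR2+ve monocytes and none in CCR1/2+ve monocytes. The calls of Cenpa and Hmgb2 in CCR2+ve monocytes were lost together without replicate 2, 3 or 4 of the resting CCR2+ve monocytes, with no filter on low counts and with upper quartile factors.

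Of the genes that rose, Espl1 (ENSMUSG00000058290, chr15:102296266-102324357, plus strand) moved most in CCR2+ve monocytes, from 15.4, 17.5, 14.3 and 12.8 to 68.6, 59.3, 64.1 and 38.3 CPM (1.86, SE 0.17, adjusted p = 3.19e-07). In CCR1/2+ve libraries it went from 24.5, 18.8, 26.5 and 19.2 to 26.7, 49.2 and 75.8 CPM (1.06, SE 0.31, adjusted p = 0.0205), a call that was lost without any 1 of the resting CCR1/2+ve libraries. That call was also lost with replicate number as a block in the fit (the replicate block). So it was with no filter on low counts and without inflamed CCR1/2+ve replicate 4. Kif20a went to 337, 231, 219 and 278 CPM in inflamed CCR2+ve (1.67, SE 0.14, adjusted p = 1.41e-07) and 419, 312 and 318 CPM in inflamed CCR1/2+ve libraries (1.11, SE 0.12, adjusted p = 9.41e-06), each above every resting library. Plk1 (ENSMUSG00000030867, chr7:122159439-122169873, plus strand) went from 92.1, 110, 107 and 89.6 to 325, 231, 195 and 232 CPM in CCR2+ve (1.23, SE 0.14, adjusted p = 4.35e-06) and from 175, 168, 206 and 218 to 381, 329 and 335 CPM in CCR1/2+ve libraries (0.74). Pttg1, which acts on the same step as Cdc20 and Espl1, was at 64.7, 68.8, 65.9 and 77.7 CPM in inflamed CCR2+ve libraries, a difference of 0.04 that did not pass (adjusted p = 0.803), and at 74.7, 73.9 and 72.5 CPM in inflamed CCR1/2+ve libraries, where it rose (0.58, SE 0.11, adjusted p = 0.000866).

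All 5 genes of the spindle checkpoint rose in CCR2+ve monocytes, and 4 rose in CCR1/2+ve monocytes. Bub1b (ENSMUSG00000040084, chr2:118598211-118641591, plus strand), the checkpoint protein BubR1, went from 99.2, 113, 117 and 93.6 to 329, 254, 207 and 242 CPM in CCR2+ve libraries (1.21, SE 0.14, adjusted p = 2.63e-06). In CCR1/2+ve libraries it went from 150, 147, 196 and 194 to 362, 324 and 292 CPM (0.80), again without overlap. Bub1 (ENSMUSG00000027379, chr2:127801122-127831865, minus strand) went from 51.5, 49.4, 47 and 38.9 to 142, 110, 91.9 and 101 CPM in CCR2+ve (1.18) and from 99.3, 97.3, 99.7 and 112 to 179, 132 and 135 CPM in CCR1/2+ve libraries (0.41). Bub3 was at 677, 533, 537 and 590 and 873, 734 and 710 CPM in the inflamed groups (0.69 and 0.63). Ttk (ENSMUSG00000038379, chr9:83834689-83872389, plus strand), the kinase Mps1, went from 24.4, 34.9, 24.3 and 26.7 to 64, 51.4, 36.1 and 49.7 CPM in CCR2+ve (0.79) and from 46.1, 54.1, 52.4 and 60.3 to 85.8, 71.6 and 62.4 CPM in CCR1/2+ve libraries (0.33, adjusted p = 0.0414). That call of Ttk was lost with library size alone, with the replicate block and without resting CCR1/2+ve replicate 1 or 3. It was also lost without inflamed CCR1/2+ve replicate 2 or 3. The call of Bub1 there was lost with library size alone. Mad2l1 was the exception: it was at 145, 117, 92.1 and 96.4 CPM in inflamed CCR2+ve libraries, where it rose (0.52), and at 186, 131 and 137 CPM in inflamed CCR1/2+ve libraries, where it fell (−0.35, adjusted p = 0.0306). Its resting and inflamed CCR1/2+ve libraries overlapped, and the fall did not pass with DESeq2, with upper quartile factors or without any of 5 of the 7 libraries.

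Of 12 spindle genes, 9 rose and 1 fell in CCR2+ve monocytes, and 6 rose and 3 fell in CCR1/2+ve monocytes. Of all genes, 21.9% rose and 25.9% fell in the former, and 20.6% and 25.4% in the latter. The 6 rose in both populations, while Aspm fell in both and Ckap2 and Kif11 fell in CCR1/2+ve monocytes. Kif2c (ENSMUSG00000028678, chr4:117159639-117182639, minus strand), a kinesin that takes microtubules apart, went from 63.9, 80.8, 76.5 and 63.6 to 197, 142, 112 and 123 CPM in CCR2+ve (0.94) and from 109, 111, 127 and 145 to 253, 207 and 189 CPM in CCR1/2+ve libraries (0.69). Aurka was at 274, 208, 149 and 161 and 353, 268 and 264 CPM in the inflamed groups (1.14 and 0.65). Its activator Tpx2 (ENSMUSG00000027469, chr2:152847964-152895321, plus strand) went from 121, 156, 151 and 139 to 354, 231, 214 and 270 CPM in CCR2+ve (0.84) and from 215, 224, 279 and 290 to 432, 357 and 343 CPM in CCR1/2+ve libraries (0.46). For these 3 genes no inflamed library lay within the resting range of its population. Kif4 was at 93, 66.6, 61.6 and 73 and 115, 92.9 and 91.1 CPM (0.90 and 0.53), and Tacc3 at 382, 299, 256 and 260 and 433, 373 and 402 CPM (0.88 and 0.38) in the inflamed groups. Kif22 (ENSMUSG00000030677, chr7:127027729-127042471, minus strand), a kinesin on chromosome arms, went from 132, 169, 160 and 146 to 365, 262, 200 and 228 CPM in CCR2+ve (0.72) and from 247, 230, 290 and 319 to 426, 340 and 351 CPM in CCR1/2+ve libraries (0.33). Here too the inflamed libraries of each population lay above its resting ones. But the call of Kif22 in CCR1/2+ve monocytes was lost with library size alone and with the replicate block. The Kif22 call was also lost without resting replicate 1 or 2 or inflamed replicate 2. Those of Tacc3 and Ncaph there were also lost with library size alone. Among the condensin subunits, Ncapd2 (ENSMUSG00000038252, chr6:125168007-125191701, minus strand) went from 73.6, 92, 78.2 and 72.6 to 257, 213, 159 and 196 CPM in CCR2+ve and from 117, 124, 136 and 152 to 278, 247 and 219 CPM in CCR1/2+ve libraries. Ncaph (ENSMUSG00000034906, chr2:127103809-127133954, minus strand) went from 93.7, 109, 113 and 90.9 to 238, 175, 142 and 208 CPM and from 159, 152, 184 and 225 to 323, 256 and 243 CPM, again without overlap.

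Of the remaining members given in full for their resting change, Cdk1 was at 149, 111, 85.5 and 83.5 CPM in inflamed CCR2+ve libraries (0.07, adjusted p = 0.777) and fell to 211, 161 and 152 CPM in inflamed CCR1/2+ve libraries (−0.46, SE 0.12, adjusted p = 0.00688), with overlap, a call lost with upper quartile factors. Ccnb2 was at 303, 192, 205 and 167 CPM in inflamed CCR2+ve (−0.22, adjusted p = 0.261) and 131, 181 and 260 CPM in inflamed CCR1/2+ve libraries, where it fell (−1.10, SE 0.22, adjusted p = 0.00263). Top2a was at 867, 635, 516 and 526 CPM in inflamed CCR2+ve libraries, where it rose (0.44, adjusted p = 0.0278), and at 1141, 938 and 778 CPM in inflamed CCR1/2+ve libraries (−0.02, adjusted p = 0.919). Aurkb, Spc25 and Kif20b were at 248, 98.7 and 89.6 CPM in inflamed CCR2+ve and 291, 169 and 144 CPM in inflamed CCR1/2+ve monocytes on average.

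Libraries within the inflamed groups were uneven. Replicate 1 of the inflamed CCR2+ve monocytes had the highest level of its group for 53 of the 54 genes, with a sum of 12733 CPM against 9346, 8062 and 8594 CPM. Without it, 27 genes rose and 12 fell in CCR2+ve monocytes; Ccnb2, Cks2, Kif11, Spc24 and Ube2c joined those that fell, and Anln, Mad2l1, Nuf2 and Top2a no longer rose. Replicate 2 of the inflamed CCR1/2+ve monocytes had the highest level of its group for 41 genes but the lowest for 11. Among the 11, Ube2c was at 71.4, 152 and 210 CPM in replicates 2, 3 and 4, Cdca8 at 86.5, 198 and 310 CPM and Spc24 at 63.5, 122 and 162 CPM, while Top2a, as given above, was highest there. Cenpa, Cdc20, Ccnb2 and Espl1 were also among the 11. The highest coefficient of variation in the group was 58.5%, that of Cenpa, and the lowest 1.51%, that of Pttg1.

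Other lists were counted beside these changes. Of all genes, 21.9% rose and 25.9% fell in CCR2+ve monocytes, and 20.6% rose and 25.4% fell in CCR1/2+ve monocytes. Several of the counts below are near these shares. Of the 45 further mitosis genes, 25 rose and 12 fell in CCR2+ve monocytes and 12 rose and 15 fell in CCR1/2+ve monocytes. Of 29 DNA replication genes, 14 rose and 4 fell, and 8 rose and 10 fell; Rrm2 fell in CCR1/2+ve monocytes (−0.67), and Cdt1 fell in both (−2.58 and −3.36). Of 14 activators of the mitotic programme, 2 rose and 9 fell in each population, with Foxm1 higher in CCR2+ve monocytes (0.79). Of 15 repressors and inhibitors, 4 rose and 9 fell in each. Of 8 cyclins and kinases of earlier phases, 1 rose and 6 fell in CCR2+ve and 0 rose and 6 fell in CCR1/2+ve monocytes, among them Ccnd3 (−1.74 and −1.59). Erythroid markers were also lower after infusion: the sum of 10 genes was 61.5 to 306 CPM in resting and 2.28 to 5.35 CPM in inflamed libraries of both populations. Those of basophils, mast cells and eosinophils were higher, 1.68 to 21.1 against 106 to 238 CPM, mostly Prss34. Of 8 early granule and progenitor genes, 0 rose and 5 fell in CCR2+ve (464 to 1624 against 278 to 558 CPM) and 0 rose and 7 fell in CCR1/2+ve monocytes (3053 to 6506 against 732 to 1179 CPM). Of 10 neutrophil genes, 6 rose and 0 fell in CCR2+ve and 6 rose and 2 fell in CCR1/2+ve monocytes. Of 8 dendritic cell genes, 0 rose in either population, while 6 fell in CCR2+ve monocytes and 3 in the CCR1/2+ve group. Between 18225 and 20020 genes were detected in resting and 17011 to 18136 in inflamed libraries of both populations. The part of these in the mitotic changes was not tested.

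Whether the response differed between the populations was tested as the interaction of population and inflammation over 15 libraries, coded as the effect in CCR1/2+ve minus that in CCR2+ve monocytes. No member passed in the main edgeR fit (0 higher, 0 lower), where 0.241% and 0.155% of all genes passed. The difference was nevertheless below 0 for 53 of the 54, with a median of −0.55 against −0.10 over all genes. At an unadjusted p under 0.05 there were 42 members (77.8%, against 13% of all genes). DESeq2 called 1 higher, Pttg1, and 6 lower, Aurkb, Bub1, Hjurp, Kif11, Mad2l1 and Smc2. It also called more of all genes, 371 higher and 163 lower, against 45 and 29 in the main edgeR fit. The smallest adjusted p of edgeR was 0.0725, for Bub1 (−0.81) and Mad2l1 (−0.91), and the range was from −1.19 for Cenpa to 0.49 for Pttg1. Leaving out 1 library gave 0 to 4 lower, the most without replicate 4 of the inflamed CCR2+ve monocytes, where Aurkb, Bub1, Kif11 and Mad2l1 passed. Over all genes, 170 were higher and 83 lower without that library. Leaving out resting CCR2+ve replicate 2 or inflamed CCR1/2+ve replicate 2 or 4 gave 2 lower each. The resting and inflamed comparisons of the populations enter this test, so they are not further evidence for it.

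Between the inflamed populations, most of the mitotic list lay above 0 in CCR1/2+ve over CCR2+ve monocytes, but no member passed in the main edgeR fit. Of the 54 genes, 49 had a log2 fold change above 0, with a median of 0.39. In that fit, 0 rose and 0 fell (0.123% and 0.0643% of all genes). At an unadjusted p under 0.05 there were 30 (55.6%, against 8.98% of all genes), and in 12 every CCR1/2+ve library was above every CCR2+ve library (5.51% of all genes). DESeq2 called 4, Kif20b, Ndc80, Prc1 and Spc25, with 141 of all genes higher, against 23 in the main edgeR fit. With all 5 groups in 1 fit, edgeR called 6 (112 of all genes), and with no filter on low counts 3 (77). The replicate block gave 20 (141 of all genes), but same-numbered libraries of these groups did not all deviate together. The largest difference was in Spc25, at 214, 141 and 153 against 126, 98, 78.8 and 92.3 CPM, with a log2 fold change of 0.76 (SE 0.17, adjusted p = 0.132), and the groups did not overlap. Kif20b was at 170, 142 and 120 against 115, 86.9, 67.6 and 89.2 CPM (0.67, SE 0.17, adjusted p = 0.184), and Cdk1 at 0.69 (adjusted p = 0.29). Prc1, a protein of the central spindle chosen here after its value was seen, had the smallest adjusted p, 0.0911 (0.67). Without replicate 1 of the inflamed CCR2+ve monocytes, 7 rose (37 of all genes): Cdk1, Kif2c, Nusap1, Plk1, Prc1, Spc25 and Top2a. The 5 genes below 0 were Cenpa (−0.23), Ccnb2 (−0.19), Espl1 (−0.19), Cdc20 (−0.10) and Ube2c (−0.10), none past the threshold. The early granule and progenitor sum was 732 to 1179 against 278 to 558 CPM and the neutrophil sum 2527 to 3188 against 1242 to 1594 CPM, and their part was not tested.

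The libraries labelled inflamed CCR1, in which Csf1r, Ccr2 and Cx3cr1 were low, had the highest summed mitotic level of the series. Several genes had a higher mean in resting CCR1/2+ve monocytes, among them Racgap1, Ccna2, Kif11 and Ccnb2, a comparison that was not fitted. The sum over the list was 18198, 17193, 19746 and 19545 CPM, above all other libraries. Against inflamed CCR2+ve monocytes, 50 genes rose (22.7% of all genes) and Pttg1 fell (25.4%), with a median log2 fold change of 0.97. Against inflamed CCR1/2+ve monocytes, 43 rose (20.2%) and Pttg1 fell (23%), with a median of 0.55. The 2 comparisons share the inflamed CCR1 libraries. With a log2 fold change of at least 1 as well, 23 rose (14.4%) in the former and 7 (13.2%) in the latter, and Pttg1 fell in both (16.8% and 14.6%). The 7 of 54 are close to the share of all genes. The 23 became 35 without inflamed CCR2+ve replicate 1, and the 7 became 3 without inflamed CCR1/2+ve replicate 3. The 43 became 30 without inflamed CCR1/2+ve replicate 3 and 34 with all 5 groups in 1 fit. It ranged from 30 to 44 with each library left out.

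Cdc20 had the largest increase, at 255, 205, 245 and 116 CPM in inflamed CCR1 libraries, with changes of 2.47 (SE 0.32, adjusted p = 0.000135) against inflamed CCR2+ve and 2.54 (SE 0.39, adjusted p = 0.00184) against inflamed CCR1/2+ve monocytes. Smc4 was at 515, 466, 508 and 357 CPM (2.10 and 1.80). Both were lowest in replicate 4, which was nevertheless above every library of both inflamed monocyte groups. Racgap1, at 116, 88.8, 96.3 and 91.6 CPM, and Ccna2, at 70.8, 55.7, 64.6 and 64 CPM, overlapped both groups. Racgap1 rose by 0.35 (adjusted p = 0.0391) against CCR2+ve, a call lost without any of 4 of the 8 libraries, and was at 0.21 (adjusted p = 0.173) against CCR1/2+ve monocytes. So of the 4 genes that fell most after infusion, Cdc20 and Smc4 were high in these libraries, and Racgap1 and Ccna2 were at most 0.47 higher on the log2 scale.

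Cdk1 was at 356, 326, 380 and 375 CPM (1.75 and 1.04) and Spc25 at 354, 305, 358 and 373 CPM (1.82 and 1.04), above every other library of the inflamed groups. Kif20a, at 288, 303, 366 and 372 CPM, and Bub1b, at 235, 252, 301 and 302 CPM, did not pass in either comparison (0.33 and −0.07 for Kif20a, 0.09 and −0.26 for Bub1b), and neither did Ckap2, a microtubule-binding protein (0.30 and −0.03). With the replicate block, whose numbers were taken as pairs here on weak correlations (0.108 to 0.206), Kif20a rose against CCR2+ve. Kif20a also rose with RLE or upper quartile factors. Pttg1 was at 29.2, 27.1, 32.5 and 29.1 CPM, below every library of the other 4 groups, with changes of −1.23 (SE 0.12, adjusted p = 1.37e-07) and −1.32 (SE 0.11, adjusted p = 2.66e-07). The 29 DNA replication genes also all rose against inflamed CCR2+ve monocytes (median 1.28), with Rrm2 at 2.25. Ccnd2, cyclin D2, was at 62.9 ± 21.4 against 2.23 ± 0.131 CPM (SD, n = 4). The part of the neutrophil and progenitor markers of these libraries in the mitotic levels was not tested.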

How the data were processed

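RNA of cells sorted from mouse bone marrow was sequenced in bulk as paired-end reads from low-input libraries. The authors aligned the reads to GRCm38 with STAR 2.7.10a, kept uniquely placed reads of 35 or more matched bases, and deposited read counts per gene of Ensembl release 91, without normalization. Which strand was counted is not given in the sources used here. Of 20 columns of counts, 19 were mapped to samples and 1 was not used: it is named as replicate 1 of inflamed CCR1/2, for which no sample record was at hand, so that group has 3 libraries. Groups come from the sample titles. Genes whose mean count was 1 or more (18652) were tested with edgeR 4.0.16 (TMM, quasi-likelihood F test, two-sided, fit on the groups compared) in R 4.3.3, with Benjamini-Hochberg adjustment over all of them. "Rose" and "fell" mean an adjusted p below 0.05. The standard error (SE) is the log2 fold change over the root of F. CPM used TMM factors over the 19 libraries. Positions and exonic lengths are from GENCODE M21. As only unique alignments were kept, reads placed equally well on Ccnb2 and its pseudogene Ccnb2-ps were not counted.

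The genes and lists were chosen with earlier results of these data known, so counts over them carry no test of their own. Genes given in full are, per role group, those with the highest level per kb and the largest and smallest resting change. Those whose call went against most of their comparison are also given in full. Of other lists, the genes with the highest mean CPM, not per kb, and the largest resting change in each direction are given. Alternatives were DESeq2 1.42.0, other scalings and filters, all 5 groups in 1 fit, the replicate block and each library left out. Replicate numbers were taken as pairs for the resting populations (correlation of deviations 0.288 to 0.536 over 4 pairs), on this correlation alone. The same was done for inflamed CCR1 with inflamed CCR2+ve (0.108 to 0.206). Same-numbered resting and inflamed CCR1/2+ve libraries, from different mice, gave 0.0715 to 0.196, so the latter pairing is weakly founded. Separate animals are not stated for replicates, so p-values may measure technical spread. The calling was tested on simulated data. For 3 list genes of the cell types and 6 of the cell cycle, rows were not analysed here.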

Additional observations from a re-analysis of the deposited data

Results flagged for a closer look

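In groups of 4 libraries, a library far from the other 3 was looked for with Dixon's criterion in 140 sets of values, of which 2 passed, where chance gives about 1 in 20. Bub1 was at 112 CPM in replicate 4 of the resting CCR1/2+ve monocytes, against 97.3, 99.3 and 99.7 CPM in the others (gap over range 0.838). Hjurp was at 122 CPM in replicate 2 of the resting CCR2+ve monocytes, against 81.7, 85.5 and 88.2 CPM (gap over range 0.837). Both genes were higher in resting CCR1/2+ve monocytes without these libraries as with them.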

How the results depend on the processing

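The 53 genes that rose between the resting populations still rose with each library left out. Among the genes given in full, no change of sign of a called gene was found under any alternative. Adding a log2 fold change of at least 1 gave 21 higher and 0 lower at rest, 8 and 4 for infusion in CCR2+ve, 2 and 11 for CCR1/2+ve, 23 higher for inflamed CCR1 against CCR2+ve and 7 against CCR1/2+ve. Between the inflamed populations, the members higher were 4 with DESeq2, 3 with no filter on low counts and 6 with all 5 groups in 1 fit. Of all genes, 141, 77 and 112 were higher in these fits. In the interaction, DESeq2 gave 1 higher and 6 lower and no filter on low counts 3 lower. Over all genes, DESeq2 gave 371 higher and 163 lower, and no filter gave 53 lower.

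With each library left out, members higher and lower ranged over 53 to 53 and 0 to 1 at rest, 27 to 33 and 5 to 12 for infusion in CCR2+ve, 14 to 17 and 16 to 23 in CCR1/2+ve, 0 to 7 and 0 to 0 between the inflamed populations, 46 to 52 and 1 to 1 for inflamed CCR1 against CCR2+ve, 30 to 44 and 1 to 2 against CCR1/2+ve, and 0 to 0 and 0 to 4 in the interaction. The 12 came without inflamed CCR2+ve replicate 1, and the 2 (with Bub1b) without inflamed CCR1/2+ve replicate 4. The causes were not tested.

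The replicate block gave 20 higher between the inflamed populations and 3 lower in the interaction. Over all genes, 141 were higher in the former and 66 lower in the latter. It gave 31 higher and 8 lower for infusion in CCR2+ve, 14 and 20 in CCR1/2+ve, and 30 and 1 for inflamed CCR1 against CCR1/2+ve. Between the inflamed populations not every same-numbered pair deviated together (correlations −0.271 to 0.464). The same held for infusion in CCR2+ve (−0.269 to 0.235) and inflamed CCR1 against CCR1/2+ve (−0.29 to 0.086). For infusion in CCR1/2+ve all 3 were above 0 (0.0715 to 0.196). There the block took Espl1, Kif22 and Ttk from those higher and added Birc5 and Cenpe to those lower. At rest and for inflamed CCR1 against CCR2+ve, where the numbers were taken as pairs, the block changed no call but that of Kif20a. Kif20a passed in the latter. Depth was 22268658 reads or more per library, and precision rests on 3 or 4 libraries per group.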
